A study of Mus musculus with 6 samples.

Results

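The 10 genes described here encode the ligands, receptors and latency proteins of the transforming growth factor beta (TGF-beta) pathway, together with a matrix protein named for its induction by TGF-beta. They are Tgfb1, Tgfb2 and Tgfb3, Tgfbr1, Tgfbr2 and Tgfbr3, Ltbp1, Ltbp2 and Ltbp3, and Tgfbi. They were chosen by name, and every probe set whose annotation gave exactly 1 of these symbols was taken, which gave 27 probe sets of the 45101 on the array. The tissue was parietal bone of the calvaria, the skull roof, from mice aged 10 days. The mutant animals were 13del-tg mice, which the labels describe as having bone overgrowth and in which 13del names a deletion in a Col10a1 transgene. They were set against wild-type littermates, called control here, and no other treatment is labelled. The labels name no promoter for the transgene and do not say how many founder lines were used. Each genotype has 3 labelled biological replicates, each on 1 Affymetrix mouse array.

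The values filed as 13del-tg 1 and control 1 were the same number for 45101 of 45101 probe sets, against 0.115% to 0.213% of probe sets in any other pair of columns. That array is called the shared array, is shown apart and belongs to neither group here, so 13del-tg 2 and 3 were set against controls 2 and 3. Col10a1, the transgene's own gene, had signals of 15688.7 and 11584.4 on the 13del-tg arrays, against 149.8 and 158.2 on the controls, and 152.2 on the shared array. In Col10a1 the shared array thus lay between the controls and had no signal like that of the 13del-tg arrays. Fits below that count it as 13del-tg run against this signal and are given only as alternatives. The female transcript Xist had 15206.4 on 13del-tg 3 and at most 84.5 on the other arrays, and the Y-linked Eif2s3y had 11.1 there and at least 1652.3 elsewhere. Sex-linked signals therefore differed within the 13del-tg pair, and their part in any difference below was not tested. Osteoblast genes were abundant on every array, with Ibsp, the bone sialoprotein gene, at 8649 or more. The 2% trimmed mean signal was 500 on every array, and precision is limited by having 2 arrays of each genotype. Fewer cells of a type and less RNA per cell cannot be told apart in such bulk tissue.

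TGF-beta ligands are made as precursors whose propeptide stays wrapped around the mature growth factor and keeps it latent. Latent TGF-beta binding proteins (LTBPs) tie this complex to fibrillin microfibrils of the matrix, and integrins, proteases or acid release it. The free ligand binds the type II receptor, which recruits and phosphorylates the type I receptor, and SMAD2 and SMAD3 then carry the signal with SMAD4 to the nucleus. Bone matrix is a large store of latent TGF-beta, which osteoclasts release during resorption and which acts on osteoblast progenitors, and sutures of the skull need balanced signalling through this pathway.

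By each gene's brightest probe set, the largest difference was at Ltbp2 and the smallest at Ltbp1, so the DNA just upstream of the 3 Ltbp genes is shown. The sequences are RefSeq windows of build GRCm38.p6, 5′ to 3′ on the gene's strand, running from 250 bases before the listed start up to the edge of the annotated gene. RefSeq windows were found for 8 of the 10 genes. Capitals mark matches, on either strand, to CAGAC (the SMAD element), TGAGTCA (the AP-1 site), TGACGTCA (the cAMP response element), TATAAA (the TATA box) and GGGCGG (the GC box).
Ltbp1, chr17:75005279-75005479, plus strand: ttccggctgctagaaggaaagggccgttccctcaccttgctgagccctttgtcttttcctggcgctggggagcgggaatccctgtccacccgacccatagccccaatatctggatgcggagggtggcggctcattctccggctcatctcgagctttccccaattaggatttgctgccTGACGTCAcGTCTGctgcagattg
Ltbp2, chr12:84876559-84876741, minus strand: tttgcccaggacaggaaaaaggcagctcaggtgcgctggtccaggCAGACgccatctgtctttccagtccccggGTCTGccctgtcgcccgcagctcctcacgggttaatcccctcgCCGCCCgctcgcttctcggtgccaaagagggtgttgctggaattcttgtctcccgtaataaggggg
Ltbp3, chr19:5740650-5740899, plus strand: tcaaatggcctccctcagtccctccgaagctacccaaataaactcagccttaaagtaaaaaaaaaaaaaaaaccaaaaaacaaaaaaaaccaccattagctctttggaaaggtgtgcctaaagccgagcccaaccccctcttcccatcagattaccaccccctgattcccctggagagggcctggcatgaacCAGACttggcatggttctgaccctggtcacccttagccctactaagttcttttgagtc
The Ltbp2 run held 2 SMAD elements and 1 GC box. In the same 183 bases, 33.6% of all 32851 RefSeq windows hold at least 1 SMAD element and 21.5% at least 1 GC box. The Ltbp1 run held 1 cAMP response element, which 0.849% of windows hold in the same 201 bases, and 1 SMAD element (36.0% of windows). The Ltbp3 run held 1 SMAD element (42.2% of windows over 250 bases). No marked matches overlapped, TATAAA and TGAGTCA were in none of the 3 runs, and 9.18% and 3.62% of windows hold them in the 201 bases. These matches describe letters in a window and are not evidence of binding.

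Across the 10 genes, signals on the 13del-tg arrays were mostly a little lower than on the controls. Of all tested probe sets, 58.6% were lower too. With each array centred on its median, 5 of the genes were negative and 5 positive by brightest probe set. None of the genes' probe sets passed the test over the whole array. Ltbp2, which binds fibrillin microfibrils but not latent TGF-beta itself, had the smallest unadjusted p among them, with 13del-tg at 0.589 of control. Tgfb1, Tgfb2, Tgfbr3, Ltbp3 and Tgfbi each also had a probe set or more that lay lower on both 13del-tg arrays, while others of the same genes overlapped. Of all tested probe sets, 23.0% lay lower on both 13del-tg arrays in this way, and for Tgfbr3 the margin was only 0.02 log2 units. The brightest probe sets of Tgfb3, Tgfbr1, Tgfbr2, Ltbp1 and Tgfbi had differences no farther than 0.12 from 0 on the log2 scale. Differences are 13del-tg minus control in log2(signal + 16), where 16 is a pseudocount that damps dim signals, tested with limma over the 27022 probe sets above the dimmest 40%. A probe set was called at a Benjamini-Hochberg adjusted p under 0.05.

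Of the 27 probe sets of these genes, 24 were bright enough to be tested and 0 were called by limma, where 0.0370% of all tested probe sets were called (10 of 27022). At an unadjusted p under 0.05, 4 of the 24 were lower in 13del-tg and 0 higher, against backgrounds of 3.72% lower and 1.42% higher among all tested probe sets. The arrays did not overlap, with 13del-tg lower, for 10 of the 24, and with 13del-tg higher for 0. Among all tested probe sets those shares were 23.0% and 12.6%. The difference was negative for 21 of the 24, with a median of -0.22, against a median of -0.08 over all tested probe sets, of which 58.6% were negative. The median depended on single arrays. Without 13del-tg 3, the array with female transcripts, the median of the 24 was -0.17, against -0.035 over all tested probe sets. Without 13del-tg 2 these medians were -0.55 and -0.108. Without control 2 they were -0.43 and -0.142, and without control 3 they were -0.21 and -0.027. Several probe sets read the same gene, so the counts above do not stand for as many genes. Taking each gene's brightest probe set, 8 of 10 were negative, with a median of -0.15, and 1 of 10 had an unadjusted p under 0.05.

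**Figure D1:**
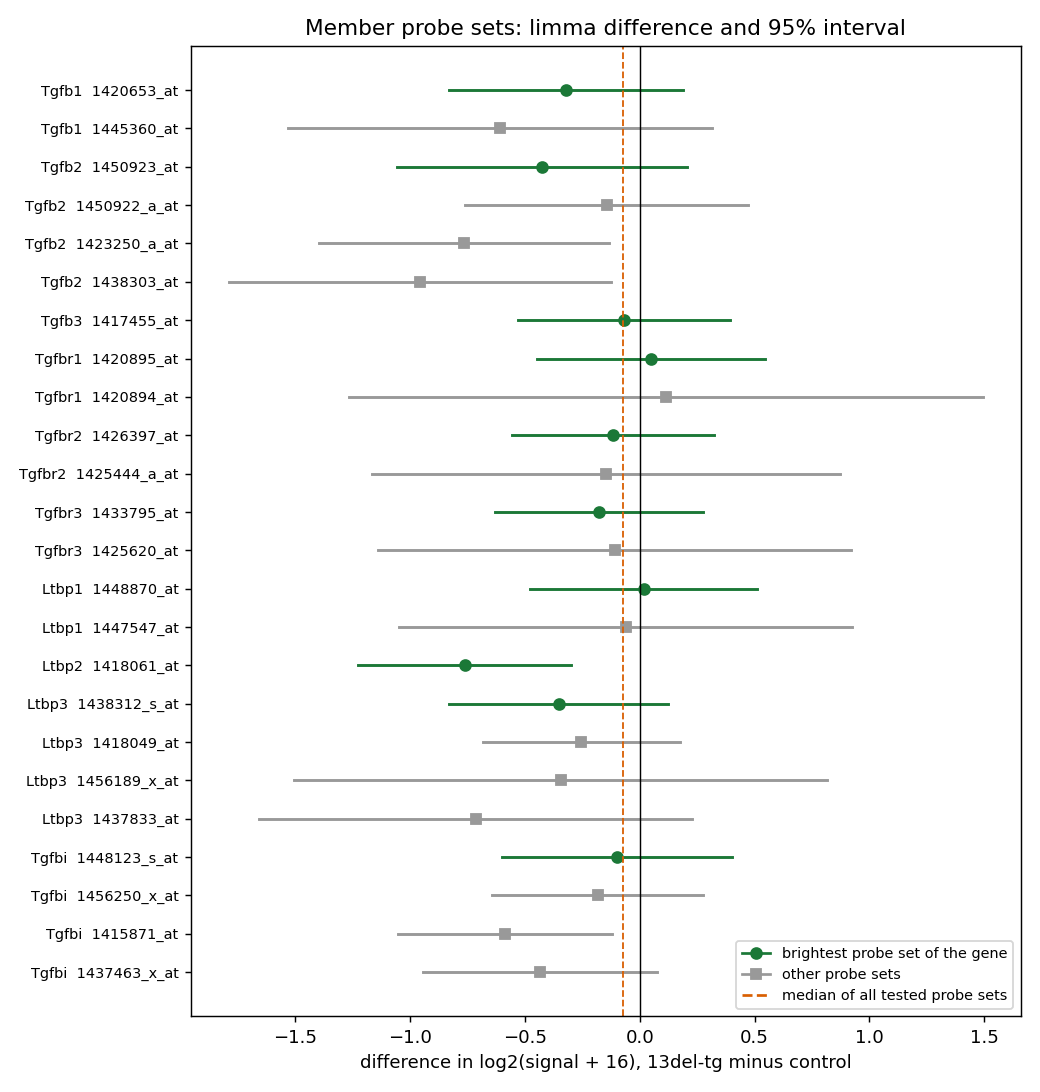
Each row is 1 tested probe set of the 10 genes. Points give the limma difference in log2(signal + 16), 13del-tg minus control (2 arrays each), and lines the 95% interval; green circles are each gene's brightest probe set, grey squares the others, and the dashed line is the median of all 27022 tested probe sets, -0.08. The intervals of Ltbp2, of 2 Tgfb2 probe sets and of 1 Tgfbi probe set lie wholly below 0, before any adjustment.

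Scaling mattered for the small values. Centring each array on its median raised every difference by 0.12, which moved the median of all tested probe sets to 0.04. It left 16 of the 24 member probe sets negative, with a median of -0.10, against 45% of all tested probe sets. By brightest probe set 5 of 10 genes were then negative and 5 positive. Over all tested probe sets the calls at an unadjusted p under 0.05 were 72.4% lower and, after centring, 47.8% lower. Of the 24 member probe sets, 3 were then lower and 0 higher at that level, against 636 lower and 695 higher of all 27022 tested.

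Among the ligands, Tgfb1, the isoform most abundant in bone matrix and platelets, is encoded at chr7:25687002-25705077 (GRCm38.p6). Its brighter probe set, 1420653_at, had signals of 3338.6 and 2623 on the 13del-tg arrays, against 3292.4 and 4163 on the controls, and 1824.2 on the shared array. Control 2 lay within the 13del-tg range, so the groups overlapped, and the shared array was below all 4. The difference was -0.32 (SE 0.22, 95% interval -0.83 to 0.19), and limma gave an adjusted p of 0.882. Leaving out 1 array gave -0.15 without 13del-tg 3 or control 3 and -0.49 without 13del-tg 2 or control 2. With the shared array as a control it became 0.02, and with it as 13del-tg it became -0.55. The dimmer 1445360_at had 96 and 74.4 in 13del-tg, against 109.8 and 170.6 in control, without overlap, and a difference of -0.61 (SE 0.40), which was -0.32 without control 3. Its signals were little above the level of the filter, 61.9.

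Tgfb2, the isoform tied to skull and suture development in mice, lies at chr1:186622787-186709697 and was read by 4 probe sets. The brightest, 1450923_at, had 817.2 and 586.3 in 13del-tg, against 1079.3 and 809.6 in control, with a slight overlap. Its difference was -0.42 (SE 0.27) and its interval ran from -1.06 to 0.21. It was -0.19 without 13del-tg 3, -0.22 without control 2 and -0.66 without 13del-tg 2, and -0.12 with the shared array as 13del-tg. Probe set 1423250_a_at had 513.8 and 364.2 in 13del-tg, against 703 and 794.7 in control, with no overlap, the mutants being lower. That is a difference of -0.77 (SE 0.27), or 0.588 of control, with an unadjusted limma p of 0.0234 and an adjusted p of 0.88. Probe set 1438303_at had 180.8 and 118.9 in 13del-tg, against 359.8 and 250.6 in control, again without overlap. Its difference was -0.96 (SE 0.36), with an unadjusted limma p of 0.029 and an adjusted p of 0.88. By contrast 1450922_a_at had 605.9 and 568.2 in 13del-tg, against 768.7 and 549.3 in control, which overlapped, and a difference of -0.14 (SE 0.27). All 4 were therefore negative, from -0.96 to -0.14, but only 2 of them separated the arrays. The shared array lay in the control range for 3 of the 4, at 691.9 (1450922_a_at), 790.3 (1423250_a_at) and 283.7 (1438303_at), and above all 4 arrays for 1450923_at, at 1316.5. Without 13del-tg 3, the array with female transcripts, the 1423250_a_at difference was -0.53 and without 13del-tg 2 it was -1.01.

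Tgfb3, the ligand of palate fusion, lies at chr12:86056743-86079041 and had 1 probe set, 1417455_at. It read 4199.1 and 3456.5 in 13del-tg, against 4243.8 and 3769.1 in control, and 3102.3 on the shared array. The groups overlapped and the difference was -0.07 (SE 0.20). The 95% interval, -0.53 to 0.39, leaves room for changes of either sign, and centring turned the value to 0.05.

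**Figure D2:**
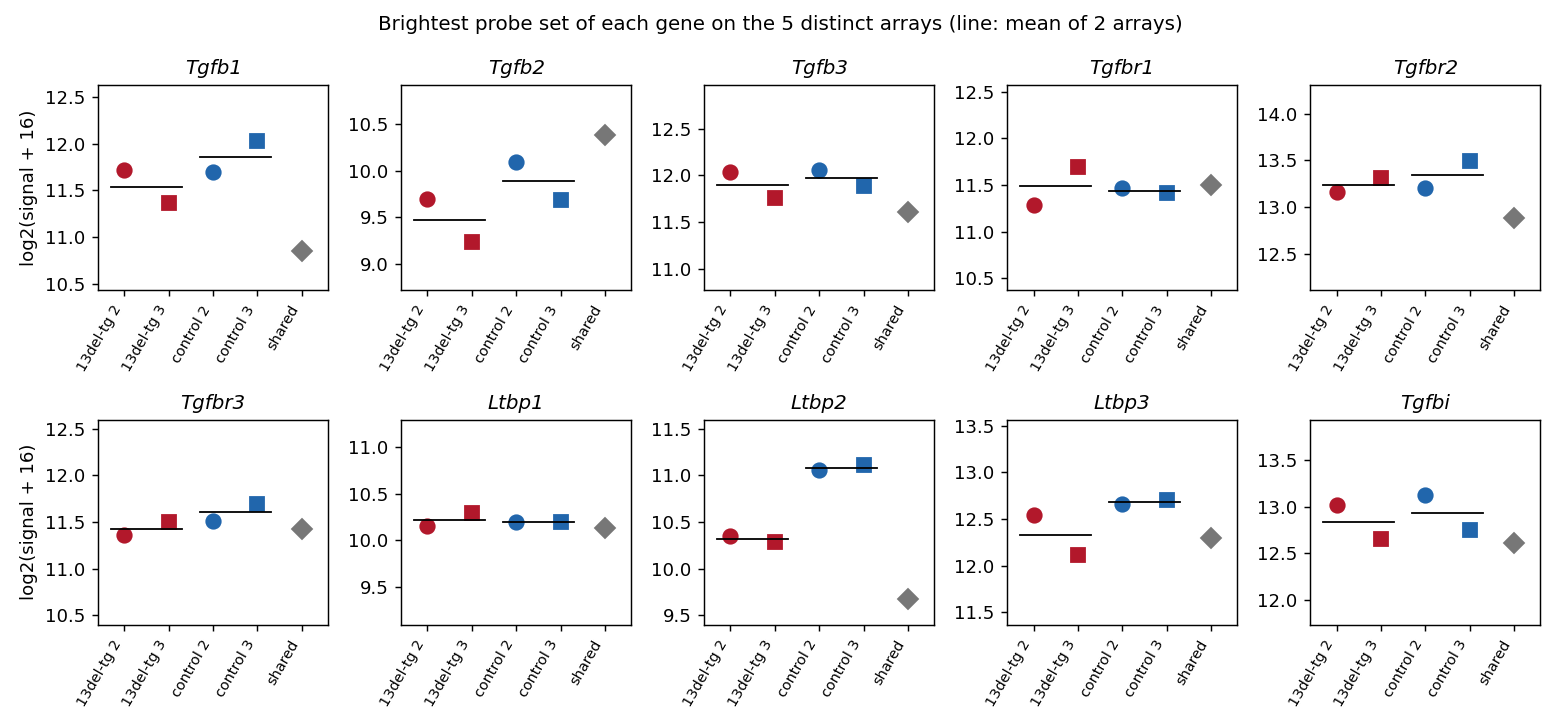
The log2(signal + 16) of each gene's brightest probe set is plotted for 13del-tg 2 and 3 (red), controls 2 and 3 (blue) and the shared array (grey diamond); black lines are means of 2 arrays and every panel spans the same height. Ltbp2 is the panel in which the red and blue points stand farthest apart, and the shared array lies below all 4 arrays for Tgfb1, Tgfb3, Tgfbr2, Ltbp1, Ltbp2 and Tgfbi.

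All 3 receptors had differences below 0.20 in size at their brightest probe sets, and only Tgfbr3 separated the arrays. Tgfbr1, the type I receptor kinase (chr4:47353222-47414926), had 2476.3 and 3301.3 at its brightest probe set, 1420895_at, in 13del-tg, against 2818.6 and 2709.8 in control. Both controls lay between the 13del-tg arrays, and the difference was 0.05 (SE 0.21, interval -0.45 to 0.55). Tgfbr2, the type II receptor that binds ligand first (chr9:116087695-116175363), had 9117.3 and 10110.9 at 1426397_at in 13del-tg, against 9420.5 and 11511.2 in control. These overlapped, with a difference of -0.12 (SE 0.19), which became 0.00 after centring. Tgfbr3, the co-receptor betaglycan that presents ligand (chr5:107106567-107289629), had 2610.5 and 2874 at 1433795_at in 13del-tg, against 2907.1 and 3306.2 in control. The arrays did not overlap here, but by a margin of 0.02, and the difference was -0.18 (SE 0.20, adjusted p = 0.909 by limma). On the shared array Tgfbr1 and Tgfbr3 were within the 13del-tg range, at 2884.6 and 2729.9, and Tgfbr2 was below all 4 arrays, at 7541.3.

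In the dimmer receptor probe sets the spread between replicates exceeded the difference between genotypes. Tgfbr2 probe set 1425444_a_at had 521.3 and 223.9 in 13del-tg, against 287.6 and 504.2 in control, and a difference of -0.15 (SE 0.44). Tgfbr3 probe set 1425620_at had 407.6 and 175.2 in 13del-tg, against 222 and 380.2 in control, and a difference of -0.11 (SE 0.45). Tgfbr1 probe set 1420894_at had 127.3 and 42.6 in 13del-tg, against 39.6 and 112.9 in control, and a difference of 0.11 (SE 0.60). In all 3 the 13del-tg pair was more than 1 log2 unit apart and the order of arrays was alike, with 13del-tg 2 above 13del-tg 3 and control 3 above control 2. The same held for 1 Ltbp3 probe set, 1456189_x_at, with 224.6 and 93.4 in 13del-tg, against 128.8 and 276.7 in control. That order held for 13 of the 24 tested member probe sets, and for 29.2% of all tested probe sets. For comparison, the SE ran from 0.19 to 0.22 for the 13 member probe sets with a mean signal of 1000 or more, and from 0.27 to 0.60 for the others.

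Among the latency proteins Ltbp2 (chr12:84783212-84876558) stood out, read by 1 probe set, 1418061_at. Its signals were 1291.9 and 1232.9 in 13del-tg, against 2107.8 and 2199.6 in control. The means were 1262 ± 41.7 in 13del-tg and 2154 ± 64.9 in control (SD, n = 2 each). The nearest arrays of the 2 groups were 0.70 log2 units apart, while arrays within a group differed by 0.07 in 13del-tg and 0.06 in control. The difference was -0.76 (SE 0.20, interval -1.23 to -0.30), and its unadjusted limma p of 0.00537 ranked 200 of the 27022 tested. It did not pass, with an adjusted p of 0.726, and an exact permutation test of 2 arrays against 2 cannot go below p = 0.333. Leaving out 1 array moved it only between -0.80 and -0.73. The shared array, however, read 803.6, below all 4, and with that array as a control the difference was -0.30, whereas as 13del-tg it was -0.98.

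Ltbp3, which binds latent TGF-beta and is known from mouse mutants for its role in skull and long bone growth, lies at chr19:5740900-5758536. Its brightest probe set, 1438312_s_at, had 5942.9 and 4434.2 in 13del-tg, against 6457.3 and 6667.8 in control, and 5038 on the shared array. The mutant arrays were the 2 lowest of the 4, with a difference of -0.35 (SE 0.21) that was -0.14 without 13del-tg 3 and -0.56 without 13del-tg 2. The next, 1418049_at, had 4084.5 and 3688 in 13del-tg, against 4514.1 and 4758.4 in control, also without overlap, and a difference of -0.25 (SE 0.19). Probe set 1437833_at had 97.4 and 92.9 in 13del-tg, against 120.9 and 227.1 in control, and a difference of -0.72 (SE 0.41). It was -0.30 without control 3 and -1.13 without control 2. The shared array had 243 there, above all 4 arrays, and as 13del-tg it brought the difference to -0.31. None of the 4 Ltbp3 probe sets had an unadjusted p under 0.05, and all 4 were negative, the overlapping 1456189_x_at at -0.34 (SE 0.50), which turned positive without 13del-tg 3 (0.23) or control 3 (0.16).

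Ltbp1, which binds and anchors latent TGF-beta (chr17:75005480-75392512), was level across the arrays. Its brightest probe set, 1448870_at, had 1119.9 and 1235.7 in 13del-tg, against 1161.9 and 1162.7 in control, and 1104.6 on the shared array. Both controls lay between the 13del-tg arrays and the difference was 0.02 (SE 0.21, interval -0.48 to 0.51). The dimmer 1447547_at had 79.9 and 54.8 in 13del-tg, against 78.6 and 62.2 in control, and a difference of -0.06 (SE 0.43). Whether Ltbp2 differed more than Ltbp1 was not tested.

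Tgfbi, an adhesion protein of collagen-rich matrix that TGF-beta induces (chr13:56609586-56639359), was read by 4 probe sets that did not give 1 answer. The brightest, 1448123_s_at, had 8281.3 and 6451.3 in 13del-tg, against 8918.8 and 6878.9 in control, which overlapped, with a difference of -0.10 (SE 0.22). Probe set 1415871_at had 4058.4 and 3163.6 in 13del-tg, against 5309.2 and 5473.5 in control, with the mutant arrays the 2 lowest. Its difference was -0.59 (SE 0.20), or 0.666 of control, with an unadjusted limma p of 0.0197 and an adjusted p of 0.88. Probe set 1437463_x_at had 1678.1 and 1298.6 in 13del-tg, against 1929.8 and 2070.4 in control, without overlap, and a difference of -0.43 (SE 0.22), which was -0.25 without 13del-tg 3. The last, 1456250_x_at, had 5298.1 and 6794.4 in 13del-tg, against 6592.7 and 7033.8 in control, which overlapped, and -0.18 (SE 0.20). The shared array lay in the 13del-tg range for 1415871_at, at 4047.7, and in the control range for 1437463_x_at, at 2012.9. An x in such a name marks probes that may also match other transcripts, and where each probe set lies in its transcript was not analysed here.

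**Figure D3:**
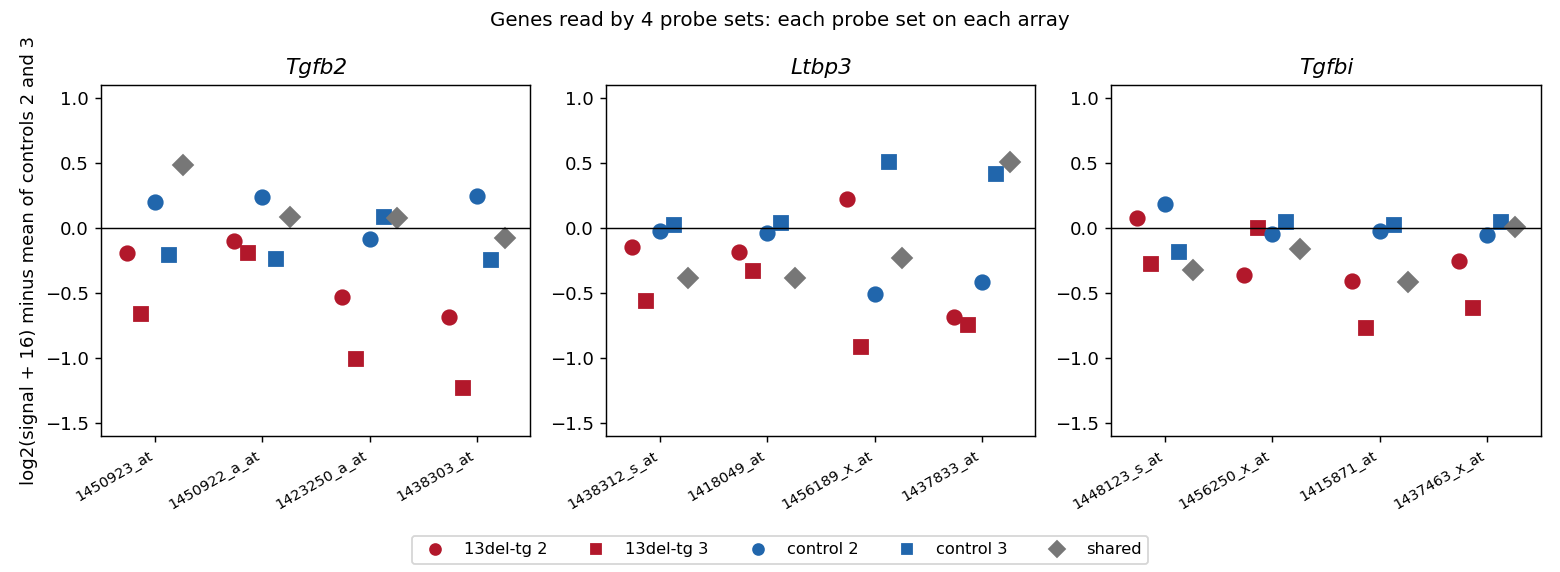
For Tgfb2, Ltbp3 and Tgfbi, each probe set's log2(signal + 16) on each array is plotted relative to the mean of controls 2 and 3; red marks 13del-tg, blue control and grey the shared array, with circles for replicate 2 and squares for replicate 3. In Tgfb2 the 2 probe sets at the right have both red points below both blue points, and the 2 at the left do not.

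The 3 probe sets left out by the filter on dim signals gave no usable difference. Tgfbr1 probe set 1420893_a_at had 11.6 and 34.6 in 13del-tg, against 17.3 and 86.4 in control. Tgfbr2 probe set 1422019_at had 37.9 and 4.1 in 13del-tg, against 34.2 and 33.8 in control. Ltbp1 probe set 1419786_at had 9.7 and 50.4 in 13del-tg, against 23.5 and 6.9 in control. The groups overlapped in all 3.

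Other genes of the pathway were taken from 5 lists of named genes, each gene by its brightest probe set. Of 57 tested genes, 0 passed limma's adjusted threshold, and at an unadjusted p under 0.05 there were 0 lower and 3 higher. Among all tested probe sets 0.0370% passed, and 3.72% were lower and 1.42% higher at that unadjusted level. These shares are the background for each list below. The median difference was 0.00, with 27 negative and 30 positive. In the list of latency and activation genes 0 of 14 had an unadjusted p under 0.05, 8 were negative and the median was -0.03. Fmod, a collagen-binding proteoglycan that also binds TGF-beta, had 18680.4 and 16586.5 in 13del-tg, against 25162.4 and 20639.1 in control, without overlap, a difference of -0.37 (SE 0.19). The integrin gene Itgb5, whose product can release latent TGF-beta, had 6418.5 and 5706.9 in 13del-tg, against 7557 and 7739.4 in control, also without overlap, a difference of -0.34 (SE 0.18). Itgb3, an integrin chain abundant on osteoclasts and platelets, had -0.50 (SE 0.27) with overlap, and Aspn, a proteoglycan that binds TGF-beta, 0.32 (SE 0.20).

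Of 6 accessory receptors 5 were negative, with a median of -0.18, and 0 of 6 had an unadjusted p under 0.05. Cd109, a membrane co-receptor that limits TGF-beta signalling, had 2873.1 and 3542.2 in 13del-tg, against 4001 and 4099.6 in control, a difference of -0.34 (SE 0.20). Acvrl1, an endothelial type I receptor, had -0.50 (SE 0.34), Eng, its co-receptor endoglin, -0.20 (SE 0.24), and Vasn, a TGF-beta trap, 0.19 (SE 0.21). The SMAD transducer list, which also holds Tab1, Map3k7 and other genes that are not SMADs, had 0 of 8 with an unadjusted p under 0.05. Its median was -0.08. Tab1, an adaptor of the kinase TAK1, had 237.5 and 259.4 in 13del-tg, against 329.2 and 465 in control, without overlap, a difference of -0.62 (SE 0.31). Map3k7, which encodes TAK1, had -0.18 (SE 0.24), Tgfbrap1, a receptor-associated protein, -0.21 (SE 0.25), and Smad2 -0.10 (SE 0.22).

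The feedback inhibitors Smad7 and Skil overlapped between the genotypes. Smad7, which blocks the type I receptor, had 471 and 373.1 in 13del-tg, against 435.8 and 395.9 in control, and a difference of 0.01 (SE 0.28). Skil, a SMAD co-repressor, had 3961.4 and 4250.1 in 13del-tg, against 4040.4 and 3982 in control, and a difference of 0.03 (SE 0.18). Of the 10 inhibitors 0 had an unadjusted p under 0.05, 6 were positive and the median was 0.01. Smurf1, a ubiquitin ligase, had -0.31 (SE 0.28), Tgif1, a nuclear co-repressor, 0.28 (SE 0.27), Smad6 -0.23 (SE 0.25) and the phosphatase gene Ppm1a 0.15 (SE 0.20).

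In the list of genes that TGF-beta is known to induce, of 23 tested, 18 were positive and 5 negative, with a median of 0.14, and 0.26 after centring. Over all tested probe sets 58.6% were negative and the median was -0.08, and 0.04 after centring. At an unadjusted limma p under 0.05 there were 3 higher and 0 lower, against 1.42% and 3.72% of all tested probe sets. Both 13del-tg arrays lay above both controls for 9 and below both for 1, against 12.6% and 23.0% of all tested probe sets. Cdkn2b, the cell cycle inhibitor p15, had 400.1 and 585.8 in 13del-tg, against 155.3 and 252.7 in control, and 131.8 on the shared array. Its difference was 1.22 (SE 0.35), about 2.33-fold, and limma gave an unadjusted p of 0.00826 and an adjusted p of 0.836. Timp1, a metalloproteinase inhibitor, had 11275 and 14172.4 in 13del-tg, against 8938.9 and 8631.5 in control, a difference of 0.52 (SE 0.19). Tagln, a smooth muscle actin-binding protein, had 2872.3 and 3251.8 in 13del-tg, against 2317.9 and 2078.1 in control, a difference of 0.47 (SE 0.20). Ccn2, the matricellular connective tissue growth factor, had 9562.2 and 10889.9 in 13del-tg, against 6773.6 and 8776.6 in control, a difference of 0.40 (SE 0.20). Ccn1, its relative, had 3454.6 and 2868.4 in 13del-tg, against 1263.9 and 2863.1 in control, barely separated, and a difference of 0.72 (SE 0.36). None of these 23 passed, many answer to other signals too, and Col1a1, Col1a2 and Postn of this list are also among the osteoblast and periosteum markers.

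**Figure D4:**
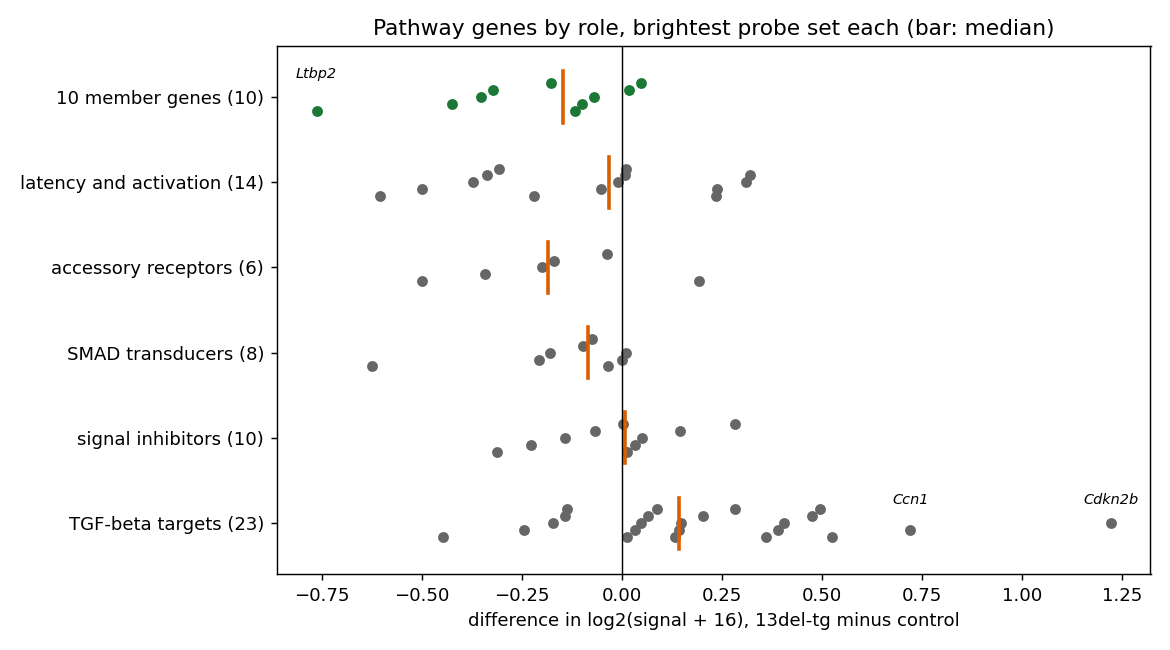
Differences in log2(signal + 16), 13del-tg minus control, are shown for the brightest probe set of each gene, by role; each point is 1 gene, its height within a row carries no meaning, and the orange bar is the row's median. The medians run from -0.18 for accessory receptors to 0.14 for TGF-beta targets, and Ltbp2, Ccn1 and Cdkn2b are the points beyond 0.70.

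By array, the median over the 24 member probe sets relative to the control mean was -0.17 on 13del-tg 2 and -0.55 on 13del-tg 3, against -0.04 on control 2 and 0.04 on control 3, with -0.12 on the shared array. Over all tested probe sets these medians were -0.04 and -0.11 on the 13del-tg arrays, against -0.04 and 0.04 on the controls, and 0 on the shared array. For the TGF-beta targets they were 0.17 and 0.13 on the 13del-tg arrays, against -0.04 and 0.04 on the controls, and -0.30 on the shared array. The shared array was below all 4 compared arrays for 7 of the 24 member probe sets and above all 4 for 3, against 20.9% and 27.1% of all tested probe sets.

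Markers of other cell types were summed on each array. Osteoclast genes, from cells that release TGF-beta from matrix, were negative for 10 of 10, with a median of -0.36. Their summed signals overlapped, with 64280 and 79020 in 13del-tg, against 76440 and 88750 in control. After centring, the osteoclast median was -0.24 and not all of these genes stayed negative. Of all tested probe sets, 58.6% were negative before centring. Platelet and megakaryocyte genes, from cells that carry much Tgfb1, were negative for 7 of 7, with a median of -0.70 and sums of 4095 and 8219 in 13del-tg, against 9302 and 9159 in control. The 6 tested erythroid genes were negative, all 6 with an unadjusted limma p under 0.05, with a median of -2.41 and sums of 3181 and 4634 in 13del-tg, against 13890 and 16100 in control. Chondrocyte genes were negative for 11 of 11, with a median of -0.91 and overlapping sums of 16460 and 7218 in 13del-tg, against 32360 and 16180 in control. Osteoblast genes summed to 196200 and 214800 in 13del-tg, against 174100 and 195500 in control, with 6 of 8 positive and a median of 0.10. Genes of fibroblasts, periosteum and suture had a median of 0.12, macrophage genes -0.04 and endothelial genes -0.19, none with an unadjusted p under 0.05 by limma. Skeletal muscle genes were positive for 7 of 8, with sums of 198100 and 145400 in 13del-tg, against 140000 and 22650 in control. The 4 tested osteocyte genes were split, with 2 at an unadjusted limma p under 0.05 and overlapping sums of 25280 and 37150 in 13del-tg, against 31090 and 37870 in control. Sost, which encodes the Wnt inhibitor sclerostin, had a difference of -1.65 (SE 0.24) and Dkk1, another Wnt inhibitor, -1.49 (SE 0.21), while the other 2 overlapped, at -0.26 and 0.15. Pineal and photoreceptor genes, from tissue outside bone, summed to 481.7 and 494.8 in 13del-tg, against 4393 and 9191 in control, and were negative for 8 of 8, of which 3 passed limma's adjusted threshold. Some listed markers had signals under the filter level of 61.9, down to 3.8 in the erythroid list. The part of any of these cells in the values of the TGF-beta genes was not tested.

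Likeness to other pathway genes was measured as the root mean square difference of centred log2 values over the 5 distinct arrays, among 66 other genes. The nearest gene to Tgfb1 was Smad6, an inhibitory SMAD, at 0.086, that to Tgfb2 was Acvrl1 at 0.22, and that to Tgfb3 was Tgfbi at 0.074. Such small distances over 5 arrays are a description only.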

How the data were processed

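Total RNA of cryosectioned parietal bone was amplified to biotin-labelled antisense RNA and hybridised to arrays, 1 for each sample, as the labels' protocols state. Values were deposited as linear signal intensities made with MAS5, per the submitters' processing notes (no version was given in the sources used here). The deposited intensities had a common trimmed mean of 500. Intensities were transformed to log2(signal + 16). The 64 control probe sets were left out, and 27022 of 45037 others whose mean log2 over the 5 distinct arrays reached the 40th percentile (6.28, which is a signal of 61.9) were tested. The two-sided test was limma 3.58.1 (eBayes with trend) in R 4.3.3, and p-values were adjusted by Benjamini-Hochberg across every probe set tested. The fit had 2 residual and 6.01 prior degrees of freedom. Of the probe sets, 34945 had 1 gene symbol in the platform annotation and 34741 of these matched the RefSeq table. The design compared 2 arrays with 2, because 1 array stood under both genotypes. The code was tested on simulated data. Nothing says whether replicate numbers mark shared litters.

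Named were all members, Smad7, Skil and Ccn2, up to 4 genes per pathway list and up to 2 per marker list by unadjusted p, and Col10a1, Xist and Eif2s3y as checks. Some listed genes are not analysed here. Members and lists were chosen with earlier results of these data known. Alternatives covered the pseudocount, filter, scaling, shared array, replicate block, trend and each array left out.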

Additional observations from a re-analysis of the deposited data

Results flagged for a closer look

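On the shared array, which enters no comparison, 3 member probe sets lay above both controls and both 13del-tg arrays. Tgfb2 probe set 1450923_at had a signal of 1316.5 there, against at most 817.2 in 13del-tg and 1079.3 in control. Ltbp3 probe set 1437833_at had 243, against at most 97.4 in 13del-tg and 227.1 in control. Tgfbr1 probe set 1420894_at had 209.7, against at most 127.3 in 13del-tg and 112.9 in control. Of all tested probe sets 27.1% lay above all 4 compared arrays in the same way.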

How the results depend on the processing

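No member probe set was called under any of the 17 alternatives, and 12 of the 24 tested kept a negative sign in all that included them, among them those of Ltbp2 (-0.98 to -0.30) and, for Tgfb2, 1423250_a_at and 1438303_at. The count of calls over the array was 10 and moved to 2 with a pseudocount of 1, a 60th percentile filter or quantile normalization, and to 1 without a filter, without the trend or with the shared array as control. It was 0 by limma with that array in both groups, where 263 were lower and 31 higher at an unadjusted p under 0.05, and 20 with robust eBayes. With the replicate block it was 668, the smallest limma adjusted p among members was 0.0504 (Ltbp2, for which the other alternatives gave 0.454 to 1), and 1 pathway gene, Cdkn2b, passed. Same-numbered arrays deviated together with a correlation of 0.216, which does not settle a pairing. With 1 array left out, which leaves a lone array in a group, the count ran from 7 to 242, the highest without control 2, and was 19 without 13del-tg 3. Signs turned in 12 of the 24. With quantile normalization Tgfbr1 1420895_at had -0.009, Tgfbr3 1425620_at 0.008 and Ltbp1 1447547_at 0.14. With median centring Tgfb3 had 0.048, Tgfbr3 1425620_at 0.008, Tgfbr2 1426397_at 0.001, Ltbp1 1447547_at 0.056 and Tgfbi 1448123_s_at 0.018. With the shared array as control Tgfb3 had 0.052, Tgfb1 0.017, Tgfbr1 1420894_at -0.36, Tgfbr2 1426397_at 0.038 and Tgfbi 1448123_s_at 0.008. With it as 13del-tg Ltbp1 had 0.01 (1447547_at) and -0.013 (1448870_at). With 1 array left out, the range over the 4 such fits crossed 0 for Tgfb3 (-0.21 to 0.07), Tgfb2 1450922_a_at (-0.381 to 0.093), Tgfbr1 1420895_at (-0.157 to 0.255) and 1420894_at (-0.531 to 0.759), Tgfbr2 1426397_at (-0.261 to 0.027) and 1425444_a_at (-0.728 to 0.435), Tgfbr3 1425620_at (-0.684 to 0.464), Ltbp1 1448870_at (-0.053 to 0.087) and 1447547_at (-0.281 to 0.157), Ltbp3 1456189_x_at (-0.912 to 0.225) and Tgfbi 1448123_s_at (-0.287 to 0.087). The cause of these turns was not tested. Signals near the filter level limit the dim probe sets.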
